A study of Mus musculus with 12 samples.

Results

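Histone H3 acetylated at lysine 27 (H3K27ac) was mapped in the cerebral cortex of mouse embryos, and the regions described here are its short stretches at the ends of genes that every library contains. All peaks of the 6 deposited H3K27ac lists that overlapped or touched were merged, which gave 85918 regions. Regions were chosen by 2 measured values, a peak in each of the 6 lists and a width below 10000 bp, and by position, at most 2 kb from the start or the end of a protein-coding gene. These limits left 12485 regions, 14.5% of all merged regions and 31.3% of the 39889 regions shared by all 6 libraries. Presence and width, and covered length beside other kinds of region, are therefore given as descriptions. Peak ranks and differences between the genotypes were tested.

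The study compared the whole cortex at E15.5, while its neurons are being born, between 2 genotypes, with 3 H3K27ac libraries each and 6 input libraries that were not analysed here. Wild-type (WT) embryos were Prdm16 flox/flox and carried no Cre, so both groups bear the floxed allele. Conditional knockout (cKO) embryos were Emx1Ires-Cre; Prdm16flox/flox. Prdm16 encodes a zinc-finger regulator of chromatin in neural progenitors. Emx1 drives Cre in progenitors of the dorsal forebrain and their descendants, so interneurons from the ventral forebrain, vessels, meninges and microglia in the lysate keep an intact allele. Chromatin was prepared without crosslinking by digestion with micrococcal nuclease and H3K27ac nucleosomes were pulled down with antibody ab4729. Replicates 1 and 2 of both genotypes carry one kind of library identifier (batch A) and replicate 3 of both another (batch B). The labels do not say whether replicates are separate embryos. The p-values below then reflect only how far these libraries vary, and that variation may be technical. The lists held 48168 to 75563 peaks. They give no numbers of reads, and the depth of sequencing is unknown.

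H3K27ac is laid down by the acetyltransferases CBP and p300 on nucleosomes beside active promoters and enhancers. At most active genes the mark forms a short block around the transcription start, with its longer arm on the transcribed side. Genes used in every cell mostly have CpG-rich promoters, whereas genes that fix cell identity can carry much wider blocks, and genes silent in a tissue usually carry none.

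Because the 5′ end of the gene is where most of these regions lie, the sequences just upstream of some starts show what the regions contain. Each line gives the 120 bases before an annotated start, 5′ to 3′ on the gene's strand, from RefSeq on GRCm38.p6, the assembly behind mm10. Capitals mark matches on either strand to any of 9 motifs searched, listed further below. The first 3 are starts in high-ranking regions, the next 7 come from gene lists described below, and the last 4 are starts named in later results.
Arrdc3: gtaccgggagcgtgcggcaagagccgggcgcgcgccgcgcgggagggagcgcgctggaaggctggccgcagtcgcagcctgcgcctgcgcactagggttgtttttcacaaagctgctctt
Tuba1a: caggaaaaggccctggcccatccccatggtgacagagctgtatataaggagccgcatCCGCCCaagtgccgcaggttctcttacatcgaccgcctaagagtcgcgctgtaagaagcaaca
Mex3b: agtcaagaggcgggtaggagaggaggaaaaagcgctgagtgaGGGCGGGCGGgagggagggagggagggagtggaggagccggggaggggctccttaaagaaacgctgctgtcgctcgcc
Rpl10: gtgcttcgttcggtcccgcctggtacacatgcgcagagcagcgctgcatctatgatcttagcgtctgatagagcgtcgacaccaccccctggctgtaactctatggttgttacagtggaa
Cox7c: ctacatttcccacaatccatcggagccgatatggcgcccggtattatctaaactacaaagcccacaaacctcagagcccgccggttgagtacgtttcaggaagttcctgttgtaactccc
Snrpg: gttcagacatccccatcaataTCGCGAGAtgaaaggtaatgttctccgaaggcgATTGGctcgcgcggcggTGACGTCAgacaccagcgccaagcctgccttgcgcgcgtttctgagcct
Kif11: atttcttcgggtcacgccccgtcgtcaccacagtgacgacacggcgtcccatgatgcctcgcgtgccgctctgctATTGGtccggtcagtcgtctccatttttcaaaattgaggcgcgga
Fabp7: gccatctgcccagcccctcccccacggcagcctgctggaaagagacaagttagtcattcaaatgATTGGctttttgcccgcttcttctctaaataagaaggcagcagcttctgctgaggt
Rorb: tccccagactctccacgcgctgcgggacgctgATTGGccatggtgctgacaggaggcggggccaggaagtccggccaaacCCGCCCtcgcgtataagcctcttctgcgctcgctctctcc
Tubb3: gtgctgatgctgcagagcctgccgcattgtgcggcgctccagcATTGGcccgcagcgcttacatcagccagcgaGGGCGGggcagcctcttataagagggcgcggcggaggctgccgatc
Pdzrn3: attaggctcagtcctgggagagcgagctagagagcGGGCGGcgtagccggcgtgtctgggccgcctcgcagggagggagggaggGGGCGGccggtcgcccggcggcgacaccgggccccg
Fzd5: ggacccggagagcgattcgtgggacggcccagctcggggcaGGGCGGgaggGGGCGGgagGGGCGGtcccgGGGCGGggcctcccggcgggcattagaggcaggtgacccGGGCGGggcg
Cfap77: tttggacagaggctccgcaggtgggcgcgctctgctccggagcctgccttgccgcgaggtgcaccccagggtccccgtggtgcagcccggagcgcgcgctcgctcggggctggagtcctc
Olfr419: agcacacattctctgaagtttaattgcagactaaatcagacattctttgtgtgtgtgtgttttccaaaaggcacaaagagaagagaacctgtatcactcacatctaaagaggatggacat

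These lie, in order, at chr13:80883264-80883383 (plus strand), chr15:98953502-98953621 (minus), chr7:82867213-82867332 (plus), chrX:74270696-74270815 (plus), chr13:86046796-86046915 (minus), chr6:86371420-86371539 (plus), chr19:37376262-37376381 (plus), chr10:57784803-57784922 (plus), chr19:19111197-19111316 (minus), chr8:123411433-123411552 (plus), chr6:101377898-101378017 (minus), chr1:64737751-64737870 (minus), chr2:29055067-29055186 (minus) and chr1:174250977-174251096 (minus). Each stretch is upstream of the outermost annotated start of its gene and overlaps no other protein-coding gene. The stretch at Fzd5, a Wnt receptor, has 80.8% G and C and 5 GC boxes. The one at Olfr419, an olfactory receptor, has 38.3% G and C, no CpG dinucleotide and none of the motifs. Fabp7, a lipid carrier of radial glia, holds 2 CpG dinucleotides where Arrdc3, an arrestin-domain protein, holds 16.

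The regions were short. Their median width was 1916 bp, with quartiles of 1398 and 2696 bp and a full range of 225 to 9971 bp. Regions of 1000 to 2000 bp were the most frequent, at 5502 regions (44.1%), and 3357 (26.9%) measured 2000 to 3000 bp. A further 1182 (9.47%) were below 1000 bp and 612 (4.90%) were 5000 bp or wider. The widest were at Slc39a11, a zinc transporter (9971 bp, shared with Cog1), Heg1 (9911 bp), Zbtb38 (9907 bp), Cdk12, a kinase of the transcribing polymerase (9880 bp), and Zfp462 (9793 bp). Just past the limit and therefore outside the set were shared gene-end regions at Zic5 (10022 bp), Tgif1 (10029 bp) and the histone gene H2ac10 (10122 bp). In all, 127 shared gene-end regions were 10000 bp or wider. The narrowest were at Cfap77 (225 bp), 9830107B12Rik (267 bp), Pabpc4 (285 bp), Sh2d6 (289 bp) and Dynlt1f (290 bp).

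Most of the regions covered a gene end outright. A gene end lay inside 10428 regions (83.5%), 1285 (10.3%) lay up to 1000 bp from one, and 772 (6.18%) lay between 1000 and 2000 bp away. The farthest, such as those at Atxn7 and Cebpa, lay at the limit of 2000 bp. Just outside it, 1424 shared narrow regions lay between 2000 and 4000 bp from a gene end. Of all 12485, 11937 (95.6%) overlapped a gene body. More than 1 gene was within reach of 2577 regions (20.6%). The gene table gives no exons, so exon, intron and UTR are not given.

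The 5′ end was the usual one. Strand was known for 17491 of 21883 protein-coding genes (79.9%), those with an entry in the promoter table. Of the regions, 9107 (72.9%) lay within 2 kb of a 5′ end, 972 (7.79%) were only near 3′ ends, and 2406 (19.3%) were near genes without a known strand. Seen from the genes, 57.3% of the 17491 5′ ends had such a region and 15.1% of the 3′ ends did. Only 5.97% of the 3′ ends had one with no 5′ end of any gene, its own included, and no end of a strandless gene within 2 kb. A divergent pair of starts, in which neighbouring genes are transcribed away from each other, accounted for 645 regions (5.17%).

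Around a start, acetylation reached further into the gene than away from it. This was measured in the 5855 regions that contain a single gene end, a 5′ end. In the WT libraries the median peak reached 540, 546 and 438 bp upstream and 1091, 1109 and 905 bp downstream. In the cKO libraries it reached 522, 504 and 482 bp upstream and 1041, 1030 and 981 bp downstream. The downstream arm was the longer one in 83.4% to 85.1% of regions in every library. At the 5′ end itself 90.2% to 97.1% of regions were under a peak, against 10.1% to 16.1% at 1000 bp upstream and 42.9% to 57.3% at 1000 bp downstream. The outermost annotated start was used, so a gene that starts mainly from an inner site adds to the downstream arm.

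**Figure D1:**
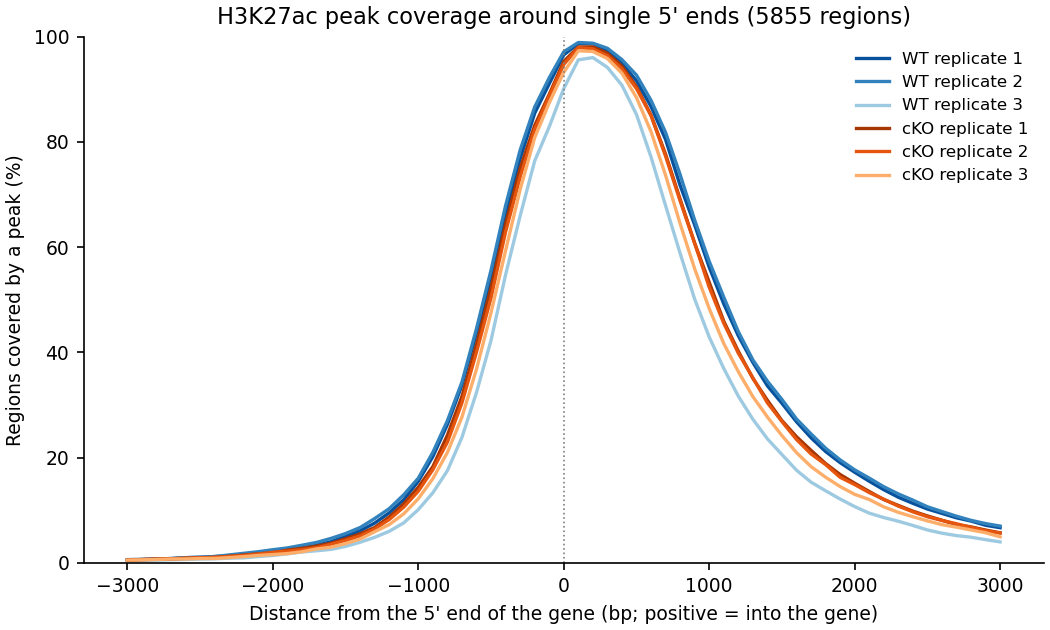
Share of the 5855 regions with a single 5′ end that lie under a peak, in percent, against distance from that 5′ end in bp (positive values lead into the gene), one line per library. All 6 lines peak just inside the gene and fall off more slowly downstream than upstream, and WT replicate 3 runs lowest.

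Column 7 of the lists is the fold enrichment of a peak over background and column 9 its −log10 q value, both made by the authors' peak caller and both read only within a list. In WT the median fold enrichment of the regions was 9.71, 9.67 and 9.07 in replicates 1, 2 and 3. In cKO it was 10.3, 10.1 and 9.52. The median −log10 q was 19.6, 22.2 and 16.7 in WT and 21.1, 21.0 and 18.9 in cKO. In each list the median region stood at percentile 80.1 to 87.8 of −log10 q among all peaks. Among the 1000 peaks with the highest −log10 q in a list, 675 to 732 lay in these regions, which held 16.8% to 27.04% of the peaks. The columns rank the regions almost alike (Spearman's rho 0.991 to 0.998 within a library, over 12485 regions that share a library). Covered length followed −log10 q more loosely, with rho 0.462 to 0.567.

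Beside shared narrow regions away from gene ends, those at gene ends ranked higher in all 6 libraries. The comparison set was the 27157 regions under the same width and presence limits that lay farther than 2 kb from any gene end. The median percentile of −log10 q was higher at gene ends by 26.8 ± 4.06 points (SD, n = 6 libraries) and that of fold enrichment by 27.03 ± 4.01 points. Both differences were above 0 in 6 of 6 libraries (two-sided exact sign-flip permutation test over libraries, p = 0.031, adjusted p = 0.031 over 3 measures, the smallest 6 libraries allow). The third measure, median covered length, was 514 ± 45.9 bp higher, and is a description because width was used to choose the regions. The libraries all share one set of merged regions and order those at gene ends alike by −log10 q (Spearman's rho 0.952 to 0.972 over library pairs). The 6 libraries are therefore not 6 independent results. Rank also rose with width, which was used to choose the regions. The fall with distance was gradual outside the gene end itself: the median percentile of −log10 q was 85.9 where a gene end was inside, 67.5 up to 1000 bp away, 64.2 between 1000 and 2000 bp, 60.4 between 2000 and 4000 bp and 55.4 beyond.

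Within the set, regions also differed by the kind of end. Those at 5′ ends exceeded those only at 3′ ends by 526 ± 52.8 bp of covered length and 25.1 ± 4.13 percentile points of −log10 q (SD, n = 6 libraries). The 645 divergent pairs exceeded the 8030 regions at a single 5′ end by 235 ± 14.5 bp and 2.99 ± 0.531 points. All 4 contrasts were above 0 in 6 of 6 libraries. Those of rank were tested (two-sided exact sign-flip permutation test, p = 0.031, adjusted p = 0.031 over 4 contrasts), and those of length are descriptions. The contrasts were chosen after the values were seen, and here too the libraries share their regions. A divergent pair holds both starts, so part of its extra length lies in the second gene.

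The region with the highest −log10 q in its lowest library was at the start of Arrdc3, chr13:80882259-80888237, 5979 bp wide. Its −log10 q was 96.7, 105 and 74.2 in WT and 118, 126 and 77.0 in cKO. Peaks covered 5971, 5927 and 5020 bp of it in WT and 5815, 5717 and 5822 bp in cKO. The genotypes overlapped in both measures, and replicate 3 was the lowest of its genotype in −log10 q. The first 10 also held Tubb2b (lowest value 65.4) and Tuba1a (60.2), which encode tubulins of growing axons, and Marcks (59.2), which encodes a membrane-bound actin regulator of developing neurons. Zfp41, Zfp462, Efcab2, Tcaf1, Clcn4 and Tsc22d1 made up the rest, at 59.3 to 61.5. The region named for Tsc22d1 lay within the gene, 362 bp from its 3′ end, and the gene table does not show whether an inner start lies there. At the other extreme of width, the 225-bp region at Cfap77 had −log10 q values of 11.3, 12.1 and 8.07 in WT and 7.42, 14.5 and 7.84 in cKO. The lowest value was 12.3 at Pabpc4 and 3.03, 3.28 and 3.42 at the other 3 of the 5 narrowest, 9830107B12Rik, Sh2d6 and Dynlt1f.

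Wider regions ranked higher up to about 2000 bp and little more beyond. The median percentile of −log10 q was 54.9 in regions below 1000 bp, 81.3 at 1000 to 2000 bp, 89.0 at 2000 to 3000 bp, 90.0 at 3000 to 5000 bp and 90.1 at 5000 bp or more. A region's rank and width come from the same peaks, so this is a description.

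The starts that carried these regions were CpG-rich. A 300-base window, 250 bases before to 50 after the start, was available for 17491 starts. The ratio of observed to expected CpG had a median of 0.775 in the 10016 starts with a region of the set, 0.731 in 111 starts with a region of 10000 bp or wider, 0.443 in 889 with another region and 0.183 in 6475 with none. A ratio of at least 0.6 was met by 74.95%, 68.5%, 33.8% and 8.99% of these classes, against 48.4% of all starts. GC content had medians of 61.3%, 60.0%, 57.0% and 47.0%. Among the 9107 regions at 5′ ends the ratio went weakly with width (Spearman's rho 0.225) and with the percentile of −log10 q (0.235). The median width was 1663 bp in 300 regions with a ratio below 0.2 and 2294 bp in 1173 with a ratio of 1 or more.

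**Figure D2:**
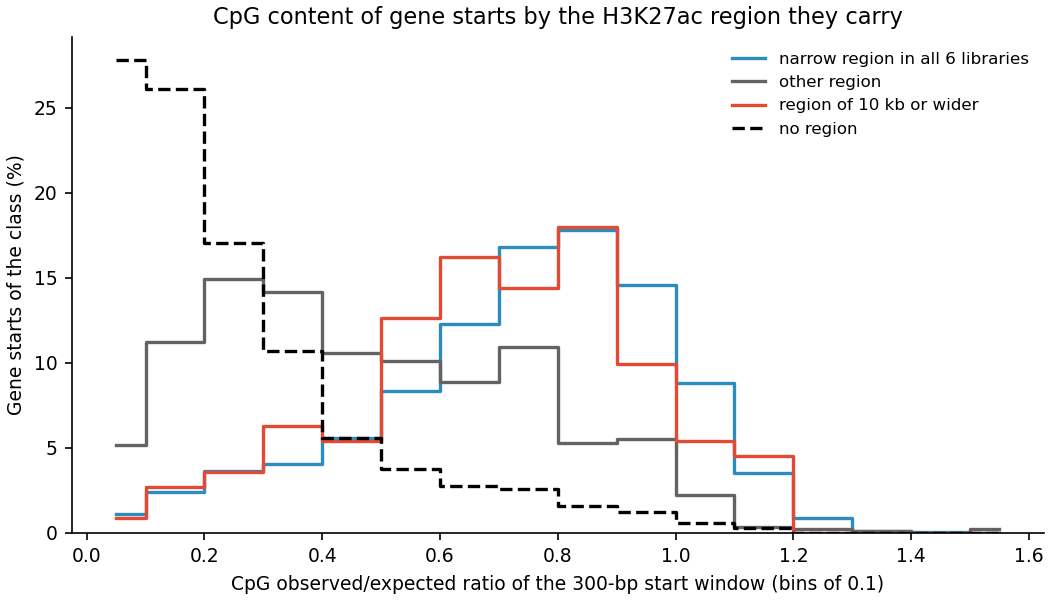
Share of gene starts in percent against the CpG observed/expected ratio of the 300-base start window, in bins of 0.1, for starts with a shared narrow region, a shared region of 10000 bp or wider, another region or none. Starts with a narrow or a wide shared region lie mostly above 0.6 and those without a region mostly below 0.4.

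Motif matches followed the same order for some elements and not for others. Motifs were searched as exact letters on both strands of the 300-base window. The GC box (GGGCGG) was present in 66.6% of starts with a region of the set, 46.3% of all starts and 14.6% of starts without a region. The ETS core (CCGGAAG) was present in 18.3%, 11.9% and 3.27%, and the NRF1 core (GCATGCGC) in 5.65%, 3.602% and 0.710%. The TATA box (TATAAA) ran the other way, at 6.68%, 13.3% and 23.7%, and in the 111 starts with a wide region it was at 18.02%. The CCAAT box (CCAAT) stood close together, at 38.9%, 39.2% and 40.2%. The YY1 core (GATGGCG) was in 6.61% of starts with a region of the set and 4.45% of all starts. The E-box (CACGTG) was in 10.3% and 7.91%, the cyclic AMP response element (TGACGTCA) in 3.44% and 2.33%, and the palindrome TCTCGCGA in 2.34% and 1.53%. All of these motifs except the TATA box and the CCAAT box hold a CpG, so their shares are not independent of CpG content. In the printed stretch of Snrpg, a spliceosome protein, the palindrome, a CCAAT box and a cyclic AMP response element stand within 1 window.

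Of the 21883 protein-coding genes, 13082 (59.8%) had a region of the set within 2 kb of an end, 164 (0.749%) had a shared region of 10000 bp or wider, 1403 had only other regions and 7268 (33.2%) had none. The share among X-linked genes was 44.3%, and no gene of the Y chromosome had one. For a set of gene lists these counts are given beside the 59.8% over all genes, with no test of any list. A gene counts even where its region also reaches a neighbour: for 3870 of the 13082 genes (29.6%) every region counted was also within 2 kb of another gene. Only the outermost annotated ends were used, so a gene with none can still hold a region at an inner start.

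Genes of basic cell functions and of the cell cycle nearly all had one. All 30 ribosomal protein genes did, as did 26 of 26 genes of the respiratory chain and ATP synthase, 20 of 20 of the mitochondrial ribosome, 26 of 26 of the spliceosome, 24 of 24 aminoacyl-tRNA synthetases, which load tRNAs with amino acids, and 24 of 24 genes of mitosis. For RNA polymerase II and its general factors it was 23 of 24, with no region at Taf1. For the proteasome it was 24 of 26. For DNA replication it was 26 of 29, with none at Orc1, Orc4 and Rfc1. The median width lay on both sides of the 1916 bp of the whole set. It was 1526 bp for the mitochondrial ribosome, 1620 bp for the proteasome, 1644 bp for the synthetases, 1854 bp for replication, 1876 bp for the respiratory chain, 1994 bp for the spliceosome, 2217 bp for the polymerase, 2307 bp for mitosis and 2496 bp for ribosomal proteins. The lists differed in how many genes shared every region with a neighbour, from 15 of 26 in the respiratory chain, 13 of 26 in the spliceosome and 12 of 23 for the polymerase to 6 of 24 for the proteasome and 3 of 24 for mitosis.

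Single members of these lists show how alike the libraries were. At Cox7c, a subunit of cytochrome c oxidase, peaks covered 964, 1221 and 948 bp in WT and 1039, 1064 and 991 bp in cKO. Its −log10 q was 44.5, 46.3 and 42.4 in WT and 48.9, 52.5 and 44.0 in cKO. At Rpl10, a protein of the large ribosomal subunit, they covered 2957, 2892 and 2189 bp in WT and 2347, 2610 and 2644 bp in cKO. At Polr2a, the largest polymerase II subunit, they covered 3359, 3115 and 2725 bp in WT and 3452, 3092 and 2898 bp in cKO. The genotypes overlapped in covered length at all 3. The mitotic kinase Ttk had the highest −log10 q of the mitosis list, 44.0 in its lowest library.

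Genes of cortical cell types had narrow regions, wide regions or both. The narrow ones were long for the set, though not only in these lists. Among genes of radial glia, which are the progenitors of the cortex, 15 of 22 had one and 6 of 22 had a region of 10000 bp or wider (Notch1, Lhx2, Pax6, Sox2, Emx1 and Emx2). Among intermediate progenitor and proneural genes 13 of 20 had one and 7 had a wide region, Neurog2 and Neurod6 among them. Among upper-layer neuron genes it was 15 of 19, with wide regions at Pou3f2 and Pou3f3 among others. Among deep-layer neuron genes it was 13 of 21, with wide regions at Tbr1, Fezf2, Bcl11a, Bcl11b, Nfia and Nfib. The median width of the regions in the set was 5026 bp for radial glia, 4973 bp for intermediate progenitors, 4414 bp for upper and 3679 bp for deep layers. Their median percentile of −log10 q was 81.7 to 86.9, close to the 84.2 of the whole set. Genes of all 4 cortical classes were therefore found with narrow and with wide regions.

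In radial glia, Fabp7 had peaks over 4337, 4549 and 4465 bp in WT and 4995, 4576 and 4951 bp in cKO. Vim, the intermediate filament of these cells, had 4690, 5425 and 4632 bp in WT and 5344, 4833 and 5150 bp in cKO. Sox4, a factor of early neurons, had 8467, 8448 and 7767 bp in WT and 7895, 8391 and 8113 bp in cKO. Foxp1, in deep layers, had 7242, 7179 and 5428 bp in WT and 6999, 6782 and 6291 bp in cKO. The genotypes overlapped at Vim, Sox4 and Foxp1. At Fabp7 every cKO library was above every WT library, the nearest at 4576 and 4549 bp. No radial glia region passed the test between genotypes described below. Axonal and synaptic genes had a region in 26 of 27 cases, with a median width of 3858 bp and none at Shank3. All 24 immediate early genes, which respond to stimulation, had one (median width 3074 bp), and Dusp1, a phosphatase that switches off MAP kinases, led them.

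Genes of signalling and of chromatin fell between these. Of 36 genes of the Wnt, BMP and Notch pathways 31 had a region of the set. The ligand gene Dll1 had a wide one and Heyl a region in fewer libraries. Rbpj, Bmp4 and Axin1 had none within 2 kb of an outermost end. The receptor Bmpr2 had the highest lowest-library −log10 q of the list (51.1), followed by the signal transducers Smad1 (36.8) and Smad5 (33.3). The median width in this list was 3880 bp. Of 34 chromatin regulators 31 had one, including Ezh2, the methyltransferase of Polycomb repressive complex 2. Of 22 genes for Prdm16 and its known partners 18 had one, with Hdac2 (lowest −log10 q 45.7) and the demethylase Kdm1a (39.4) leading. Prdm16 itself lay in a region of 10000 bp or wider, which does not check its deletion, Mecom and Ppara had only other regions, and Pparg had none. Zinc-finger genes named Zfp had one in 327 of 397 cases (82.4%) and replication-dependent histone genes in 43 of 67 (64.2%), with a wide region at another 16 (23.9%).

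Genes of other cells in or near the cortex had regions of the set in smaller shares than the 59.8% over all genes. The counts were 7 of 22 for interneurons and the ventral forebrain, 7 of 18 for the oligodendrocyte lineage, 3 of 18 for vessels, 6 of 20 for microglia and blood, 5 of 18 for meninges and 4 of 18 for Cajal-Retzius cells and the cortical hem. For interneurons another 9 of 22 had a wide region, among them Dlx1, Dlx2, Dlx5, Dlx6, Gad1, Gad2 and Lhx6. The 3 vascular genes with a region of the set were Abcc9, Esam and Pdgfrb. Another 9 of the 18, Cldn5 and Cdh5 among them, had only regions found in fewer libraries. The remaining 6, Pecam1 and Tek among them, had none. The median percentile of −log10 q was 31.3 for the 4 vascular regions and 49.0 for the 9 interneuron regions. The interneuron regions were as long as those of cortical cell types, with a median width of 5109 bp, and the 4 Cajal-Retzius and hem regions had 3496 bp. For the oligodendrocyte, vascular, microglia and blood, and meninges lists the median width was 1067 to 1268 bp. In a whole-cortex lysate, fewer cells of a type and less acetylation per cell cannot be told apart.

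Genes known from sensory organs, the trunk and other tissues mostly had no region. Of 1110 olfactory receptor genes 1 had a region of the set, 8 had another region and 1101 had none. The 1 gene was Olfr419. Peaks in its region covered 1166, 1043 and 541 bp in WT and 771, 661 and 712 bp in cKO. Of 353 vomeronasal receptor genes 5 had one, and the strongest of them, at Vmn1r4, was shared with Nt5c3. None of 39 Hox genes had one and 38 had no region at all. Of 36 genes of other tissues 8 had one and 23 had none. At 4 of the 8 every region was shared with a neighbour, as for Sftpc with Bmp1, Actn3 with Zdhhc24 and Mylpf with Tbc1d10b.

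**Figure D3:**
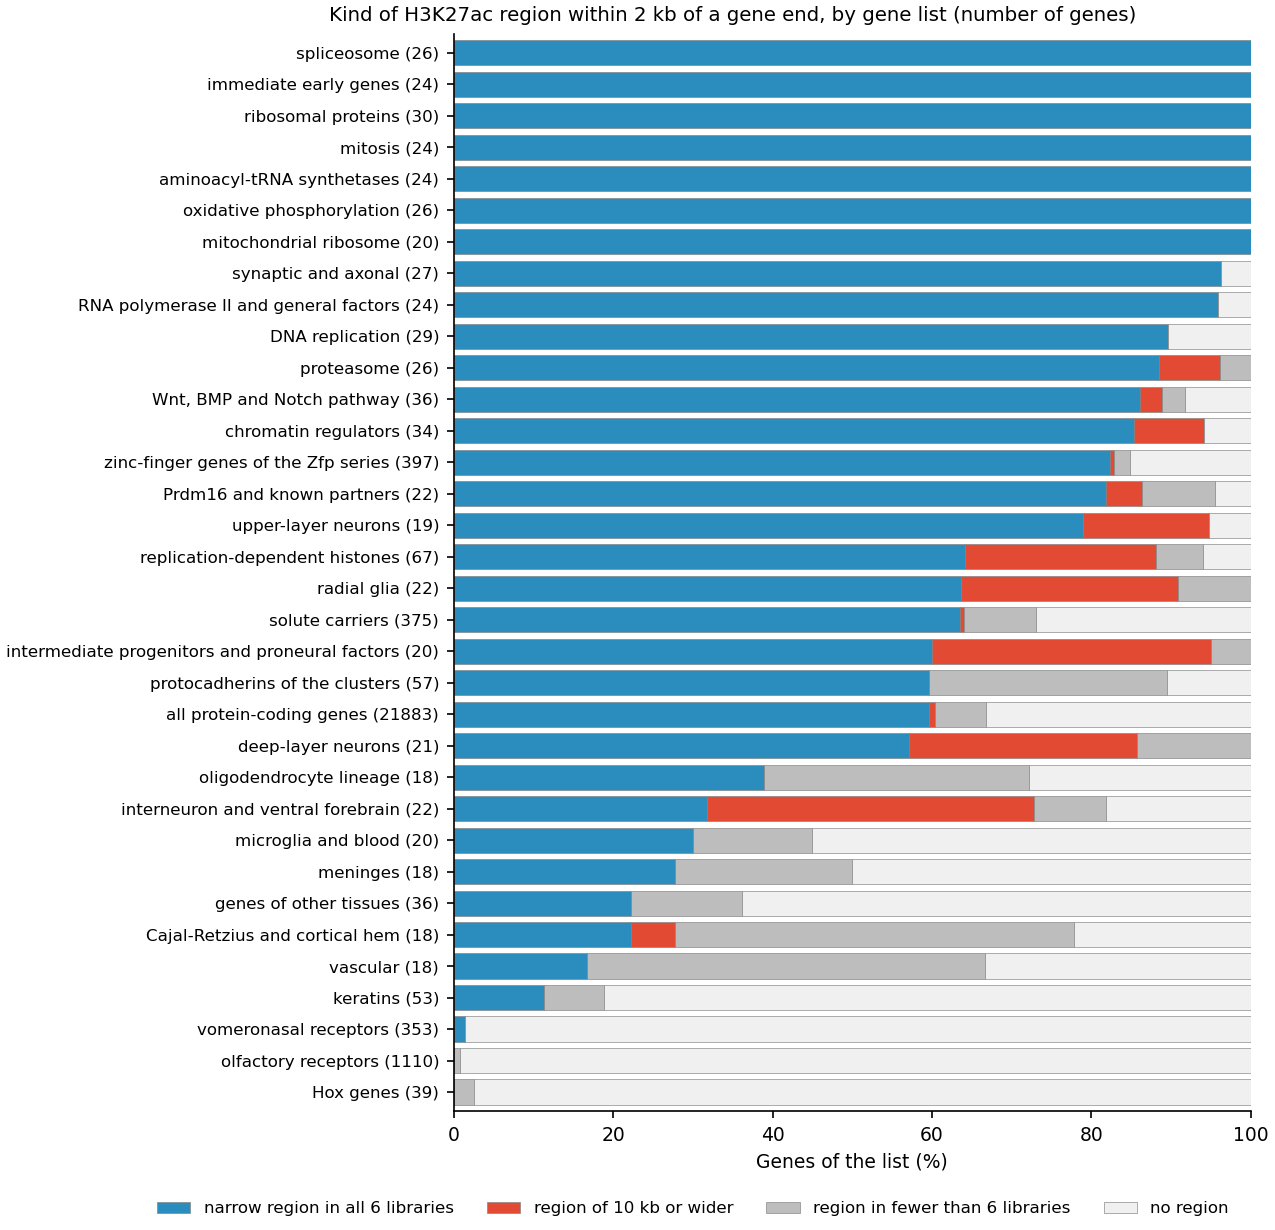
Percent of the genes of each list (number of genes in brackets) with a shared narrow region, a shared region of 10000 bp or wider, a region in fewer libraries only, or no region within 2 kb of an end, a gene with both shared kinds being counted as wide. Most lists of basic cell functions lie at or near 100%, and so do the mitosis, immediate early and synaptic lists. Cortical identity lists divide between narrow and wide, and receptor and Hox genes carry almost none.

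The total extent of these regions differed between the genotypes by less than the spread between libraries. Peaks covered 24.8, 25.5 and 19.9 Mb of them in WT and 23.6, 23.2 and 21.9 Mb in cKO. The means were 23.4 ± 3.05 and 22.9 ± 0.901 Mb (SD, n = 3 each), a difference of -0.516 Mb (two-sided exact permutation test, p = 0.9, adjusted p = 0.9 over 3 measures, smallest possible p 0.1). WT replicate 3 was lowest and WT replicate 2 highest, so the WT libraries enclosed all cKO libraries. Within batch A the difference was -1.75 Mb and within batch B, with 1 library a genotype, 1.96 Mb.

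The share of all covered bases that lay in the regions was 29.8%, 27.7% and 37.0% in WT and 32.3%, 32.8% and 34.4% in cKO. The difference was 1.70 percentage points (exact permutation test, p = 0.6, adjusted p = 0.9), with 3.83 in batch A and -2.56 in batch B. The median part of a region under peaks was 90.2%, 92.6% and 72.4% in WT and 85.8%, 84.8% and 79.9% in cKO. Its difference was -1.56 points (exact permutation test, p = 0.9, adjusted p = 0.9), with -6.07 in batch A and 7.47 in batch B. All 3 measures changed sign between the batches, and replicate 3 stood apart from replicates 1 and 2 in the same way in both genotypes.

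**Figure D4:**
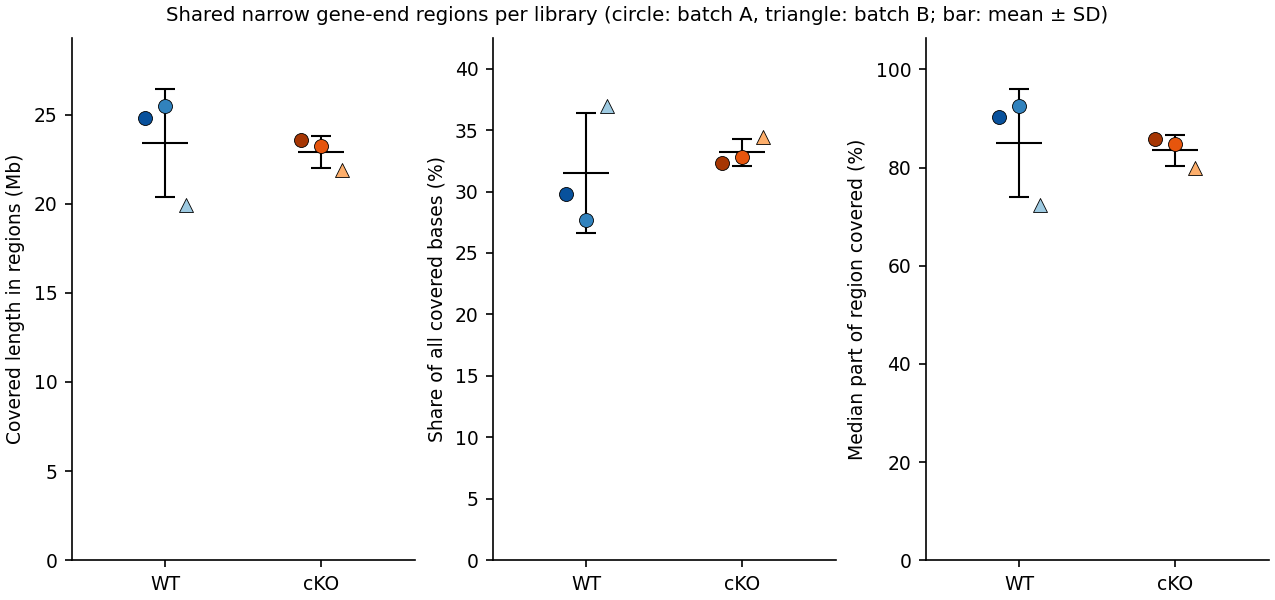
Covered length in Mb, share of all covered bases in percent, and median part of a region covered in percent, for each WT and cKO library (circles batch A, triangles batch B, bars mean ± SD, n = 3). The WT libraries span a wider range than the cKO libraries in all 3 panels, and replicate 3 of each genotype lies to the same side.

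The libraries shared most of the bases as well as the regions. Of 28.3 Mb in the merged regions 18.5 Mb (65.3%) lay under a peak in all 6 lists, against 46.6% in shared narrow regions away from gene ends. Bases covered in all 3 WT lists and no cKO list came to 68.2 kb, 2.41 bp per kb, and the reverse to 41.3 kb, 1.46 bp per kb. Away from gene ends the same figures were 7.55 and 3.29 bp per kb. These shares follow the choice of regions in part, since every library had to have a peak in each. The order of regions by −log10 q was as alike between genotypes (Spearman's rho 0.954 to 0.969 over library pairs) as within them (0.952 to 0.972).

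Region by region, 2 of 12484 tested regions passed for a difference in covered length between the genotypes, 1 longer and 1 shorter in cKO. The test was limma on log2(covered bp + 200), each library shifted by its median, with batch as covariate and Benjamini-Hochberg adjustment over all 57317 merged regions fitted. Over all of these 0.201% were called longer and 0.495% shorter. Every region had to have a peak in every library, which limits how far its lengths can differ, so the low count is not read against that background. Without adjustment, 167 of the 12484 had p below 0.05 with a longer and 135 with a shorter length in cKO, and this division depended on scaling: 71 and 163 with no scaling, 198 and 90 with equal totals. The median log2 change was 0.03, with quartiles of -0.04 and 0.11, 88.4% within 0.25 of 0 and 26 regions beyond 1 in either direction.

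The groups did not overlap, with all 3 cKO libraries above all 3 WT libraries, in 776 regions (6.22%), where 7.03% of all tested regions did so. They were all below in 390 (3.12%), where 9.05% of all did so. With no scaling these counts were 291 and 427, so the balance between them turned with the scaling.

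The region that was shorter in cKO lay at the start of Fzd5, a Frizzled receptor for Wnt ligands, at chr1:64735960-64738776. Peaks covered 1741, 1612 and 1754 bp in WT and 225, 200 and 387 bp in cKO. All cKO libraries were far below all WT libraries, at a mean of 271 ± 102 against 1702 ± 78.5 bp (SD, n = 3). The change was -1.98 ± 0.12 on the log2 scale (SE, limma adjusted p = 0.0157, lower in 3 of 3 cKO libraries than in any WT library). In WT replicates 1 and 2 there were 2 peaks, 1 across the start and 1 between 1074 and 1790 bp inside the gene, and in WT replicate 3 there was 1 peak over both places. In the cKO lists a single short peak remained near the start. All these peaks were weak, with −log10 q of 1.92 to 4.09, where the lowest value in a list was 1.31 to 1.39. The region stood at percentile 17.1 on average. The call was lost in lists of equal length (adjusted p = 0.635, change -1.53), with no filter on length (0.052), and without WT replicate 1 (0.107), WT replicate 2 (0.0839), cKO replicate 1 (0.117) or cKO replicate 2 (0.107). With only peaks of −log10 q of at least 5 nothing of it was left to test. The 120 bases upstream of this start, printed above, lie within the region and hold 5 GC boxes.

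The region that was longer in cKO lay 957 bp past the 3′ end of Insyn2a, which encodes a protein of inhibitory synapses, at chr7:134878433-134880951. It overlapped the body of a gene other than Insyn2a, so the name gives only the nearest gene end. Peaks covered 407, 695 and 275 bp in WT and 2295, 2150 and 1921 bp in cKO. The groups were well apart, at 459 ± 215 and 2122 ± 189 bp (SD, n = 3). The change was 1.91 ± 0.17 on the log2 scale (SE, limma adjusted p = 0.0331, higher in 3 of 3 cKO libraries than in any WT library). Its −log10 q was 2.42, 3.43 and 2.19 in WT and 5.90, 5.18 and 7.14 in cKO. The call was lost whichever library was left out (adjusted p 0.0712 to 0.161), and also in lists of equal length (0.301), with no filter (0.0761), with no scaling (0.0735), with quantile normalization (0.0506) and within batch A (0.0685).

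The other regions with the smallest p did not pass. At the start of Ptx3, a secreted pentraxin of innate immunity, peaks covered 3051, 2111 and 1787 bp in WT and 5995, 5815 and 6593 bp in cKO (change 1.41 ± 0.20 SE, limma adjusted p = 0.0955). Relative to the start, with negative positions upstream, the WT peaks began at -245, -224 and -98 bp and the cKO peaks at -337, -280 and -265 bp. The cKO peaks ran on to 5534 to 6327 bp inside the gene, where the WT peaks ended at 1688 to 2805 bp. Its −log10 q was 21.7, 27.7 and 14.7 in WT and 29.5, 32.5 and 22.3 in cKO, well above that of Fzd5. Without the batch covariate its adjusted p was 0.0427. At Sulf1, an enzyme that trims heparan sulfate, the values were 600, 629 and 187 bp in WT and 1165, 930 and 738 bp in cKO (limma adjusted p = 0.15). At Rmc1, on chromosome 18, they were 901, 863 and 471 bp in WT and 1439, 1370 and 1036 bp in cKO (adjusted p = 0.124). At Arhgef33 they were 423, 726 and 390 bp in WT and 1224, 1102 and 1262 bp in cKO (adjusted p = 0.161).

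In the other direction, at an end of Smoc1, a secreted calcium-binding protein that acts on BMP signalling, peaks covered 1290, 1663 and 1162 bp in WT and 378, 455 and 320 bp in cKO. The change was -1.37 ± 0.15 (SE, limma adjusted p = 0.0564, 0.0301 in lists of equal length and 0.02 without the batch covariate). Near Celsr1, a planar polarity cadherin, they covered 2156, 2890 and 1516 bp in WT and 763, 855 and 754 bp in cKO (adjusted p = 0.0854, and 0.0389 without the batch covariate). Past the 3′ end of Usp2, a ubiquitin protease, they covered 1537, 1543 and 1397 bp in WT and 707, 676 and 668 bp in cKO (adjusted p = 0.0897, and 0.0428 in lists of equal length). Near Psmb7, of the proteasome, they covered 1552, 2064 and 476 bp in WT and 601, 566 and 207 bp in cKO (adjusted p = 0.0931), and here the covered lengths of the groups overlapped. None of these regions passed the test as fitted with batch.

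**Figure D5:**
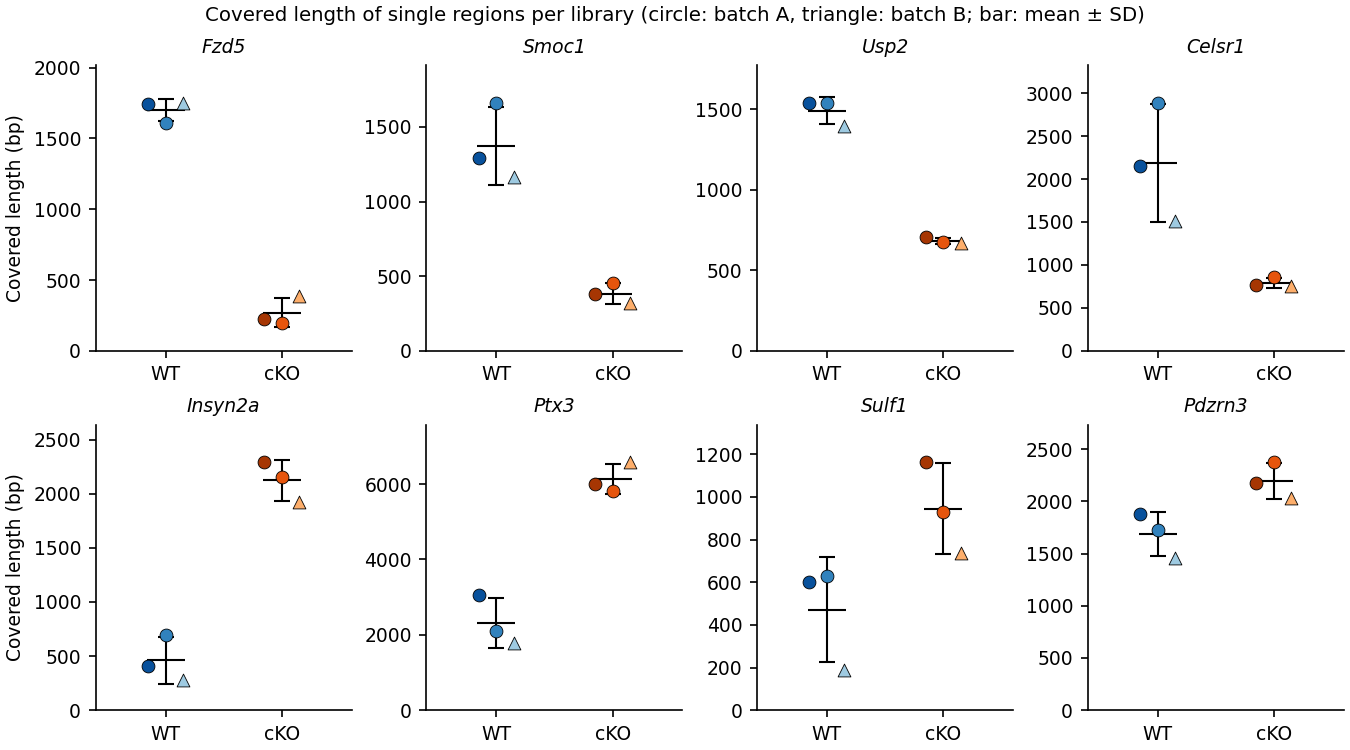
Covered length in bp of 8 single regions in each WT and cKO library (circles batch A, triangles batch B, bars mean ± SD, n = 3), each panel on its own axis from 0. All panels but Pdzrn3 were taken from the regions with the smallest p, so the separation of the genotypes in every panel follows largely from the choice. Psmb7, from the same regions, overlapped in covered length and is not shown. Only Fzd5 and Insyn2a passed the test.

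The remaining regions named by rule did not pass either. At the start of Pdzrn3, a ubiquitin ligase gene on chromosome 6, peaks covered 1876, 1724 and 1456 bp in WT and 2174, 2380 and 2035 bp in cKO. The groups did not overlap, and the change was 0.40 ± 0.13 (SE, limma adjusted p = 0.408). At Emx1, whose locus carries the Cre driver in cKO only, the start lay in a wide region and the set held 2 regions at the 3′ side. Peaks in the first, 28 bp from the 3′ end, covered 1620, 2420 and 414 bp in WT and 2362, 2380 and 1893 bp in cKO (adjusted p = 0.473). Peaks in the second, 666 bp past it, covered 2867, 5398 and 2522 bp in WT and 2275, 2165 and 2126 bp in cKO (adjusted p = 0.529). In this second region every cKO library was below every WT library, with a change of -0.54 ± 0.25 (SE). Slc35d3 had no region of the set.

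By gene list, the changes were small on the whole. The Wnt, BMP and Notch list held the 1 called region, Fzd5, among 36 tested, with a median log2 change of 0.02. No region of the other lists passed. The median change was 0.00 for ribosomal proteins (36 regions, -0.22 to 0.25), 0.05 for the spliceosome (32), 0.10 for the mitochondrial ribosome (23) and 0.07 for chromatin regulators (36), where it was 0.03 over the whole set. For cortical lists it was 0.12 for radial glia (19 regions, -0.54 to 0.80), -0.04 for intermediate progenitors (15), 0.02 for upper layers (17) and -0.02 for deep layers (13). For other cells it was 0.12 for interneurons (9 regions), -0.16 for vessels (4), 0.05 for microglia and blood (6) and -0.06 for meninges (7). The widest range was that of the Wnt, BMP and Notch list, -1.98 to 0.28, and its low end is Fzd5.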

How the data were processed

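The data are 6 broad peak lists, 1 per H3K27ac library, deposited by the authors. The submitters' processing notes name MACS2 2.1.1, Bowtie2 2.2.8, cutadapt and FastQC, with mm10 as build. The settings, and whether input libraries served as control, were not given in the sources used here. Column 7 of the deposited lists is a fold enrichment ratio and columns 8 and 9 are −log10 p and −log10 q values, all made by the authors' peak caller, and column 5 is its display score, which was not used. Lists hold no read counts, so depth is unknown and a longer list need not mean more acetylation.

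Peaks were merged where they overlapped or touched, and a region's covered length in a library is the bases under that library's peaks. Column values are the highest in a region, and percentiles are taken among all peaks of one list. Genes and start windows came from RefSeq tables of GRCm38.p6. Histone genes were matched through symbols such as H2ac10 and H4c14, after a first set of symbols matched none. Covered length was tested with limma 3.58.1 (R 4.3.3) on log2(bp + 200) for regions with a mean of at least 200 bp, after shifting each library by its median over all shared regions, with batch as covariate and a Benjamini-Hochberg threshold of 0.05. Totals per library used exact permutation tests over 20 label assignments, and comparisons within libraries used 64 sign patterns. The other steps were run in pandas 2.3.3, numpy 2.4.6 and matplotlib 3.10.9 under Python 3.11.15. Merging and limma steps were tested on simulated data.

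Regions named singly were those with the highest −log10 q in their lowest library (10), the widest and narrowest (5 each), the 5 with the smallest p in each direction, up to 4 per gene list, and those at Prdm16, Emx1, Mecom, Pdzrn3, Fzd5 and Slc35d3. A region is named by its nearest gene end. Some genes are not reported here. The regions, lists and motifs were chosen with earlier results of these data known. Alternatives changed the peaks used, merging, distances, width limits, batch term, pairing, pseudocount, filter, scaling and libraries. The within-batch fit was added after seeing the data.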

Additional observations from a re-analysis of the deposited data

How the results depend on the processing

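The number of regions stayed within 1.5 times 12485 under every alternative, from 10331 to 14542, and from 12482 to 12874 with a library left out. The genotype difference in covered length ran from -2.26 to 0.525 Mb with a library left out, and was 0.192 Mb without WT replicate 1 and 0.525 Mb without WT replicate 2. That in the share of covered bases ran from -0.198 to 4.44 points, below 0 without WT replicate 2. That in the median part covered ran from -7.88 to 2.19 points, above 0 without WT replicate 1 (1.01), WT replicate 2 (2.19) or cKO replicate 3 (0.246). The excess over regions away from gene ends kept its direction in every setting run. With a library left out it was 506 to 530 bp, 25.6 to 27.9 points of −log10 q and 25.9 to 28.2 points of fold enrichment. It was 753.7 bp, 34.4 and 34.6 points with peaks of −log10 q of at least 5, and 31.4 and 31.7 points in lists of equal length. With 5 libraries the smallest exact permutation p is 0.0625.

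The number of regions called by limma was 2, and 31 with peaks of −log10 q of at least 5, 10 in lists of equal length, 5 with no batch covariate, 1 with no scaling, 1 with quantile normalization, 0 with no filter and 0 to 2 with a library left out (0 without WT replicate 1, WT replicate 2, cKO replicate 1 or cKO replicate 2). Within batch A it was 2, both shorter in cKO, and 1 of them was a main call. The same held without WT replicate 3 and without cKO replicate 3. Of the 31 calls 1 was a main call, and of the 10 calls in lists of equal length 0 were. Of the 10 regions with the smallest p, the only single regions refitted, none changed sign, and Fzd5, Celsr1 and Arhgef33 could not be fitted with peaks of −log10 q of at least 5. The causes of these shifts were not tested, and 31 calls with fewer peaks come from other covered lengths. With the replicate number as a block 0 regions were called, 177 had an unadjusted p below 0.05, and the adjusted p was 0.112 at Fzd5 and 0.125 at Insyn2a. The same-numbered libraries correlated at 0.0589, 0.0551 and 0.129 in their deviations over all tested regions. Each library correlated best with its own number there. Over the regions of the set, however, WT replicate 2 correlated better with cKO replicate 1 (0.0809) than with cKO replicate 2 (0.0319). Correlations this low cannot settle whether the numbers pair the samples, and replicate 3 is also batch B in both genotypes.

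A difference between peaks near the calling threshold, as at Fzd5, cannot be measured more finely without read counts.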
